A study of Homo sapiens with 6 samples.

Results

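Cytochrome c oxidase, or Complex IV, is the last enzyme of the respiratory chain, and the nuclear genes that encode its subunits and the factors that assemble it were followed in Molm13-Cas9 cells after COX4I1 was targeted. Members were the rows of the count table whose symbol begins with COX or COA followed by a digit, together with SCO1, SCO2, SURF1, PET100, PET117, TACO1, OXA1L, HIGD1A, HIGD2A, CMC1 and CMC2, with COX4I1 itself set apart. This gave 42 of 19845 genes, of which 15 encode nuclear subunits or their isoforms and 27 encode assembly factors. COA8 stands in the table under its older symbol APOPT1, so the rule did not take it. The comparison asks whether the mRNA of the other Complex IV genes moves when 1 subunit gene is disrupted.

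RNA was sequenced from 6 cultures of Molm13, an acute myeloid leukemia line with an MLL rearrangement, and all 6 expressed Cas9 and were selected in 1.0 µg per ml puromycin after lentiviral delivery of a guide RNA in the ipUSEPR vector. The groups were 3 libraries with sgCtrl guides and 3 with guides to COX4I1, numbered #1 to #3 in each, and the study describes the 3 guides of a group as independent sequences, so the spread within a group includes differences between guides. The cultures were populations and not single clones, and a cell with an unedited or in-frame allele cannot be told from an edited one in these counts. Fewer cells expressing a gene and less RNA per cell cannot be told apart either. Between 17241014 and 30861943 reads were counted on genes in each library. All 8 markers of acute myeloid leukemia cells checked were expressed at 33.4 CPM or more (read counts scaled to the TMM-normalised library size), though their levels were not alike in the groups, with 6 of 8 estimates below 0. MPO, the peroxidase of myeloid granules, was at 228.1, 218.6 and 235.0 CPM in sgCtrl and 116.8, 105.0 and 105.8 CPM in sgCOX4I1 (log2 fold change -1.06, SE 0.07, adjusted p = 1.6e-05 in edgeR's quasi-likelihood test), and FLT3, a growth factor receptor, also lay lower without overlap (log2 fold change -0.23, edgeR adjusted p = 0.190). CD33 lay the other way without overlap, at 51.44, 51.31 and 48.25 CPM in sgCtrl and 52.07, 59.41 and 55.71 CPM in sgCOX4I1 (log2 fold change 0.15). In all, 3 of the 8 markers did not overlap between groups, where 21.6% of all genes did not. The part of these differences in the results below was not tested. Of markers of other cells, HBA1, HBB, EPCAM and KRT19 were at 0 in every library, CD3E was near 0, and PECAM1, an adhesion protein that myeloid cells also carry, was expressed.

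The targeted gene was checked first. COX4I1, which encodes the subunit that joins the COX1 module early in assembly, was at 512.8, 501.7 and 462.6 CPM in sgCtrl #1, #2 and #3, and at 131.7, 377.6 and 133.0 CPM in sgCOX4I1 #1, #2 and #3. Its log2 fold change was -1.21 (SE 0.29, n = 3 libraries per group), with an adjusted p of 0.0512 in edgeR's quasi-likelihood test. The sgCOX4I1 #2 library kept 76.7% of the sgCtrl mean, and without it the log2 fold change was -1.90 (edgeR adjusted p = 3.37e-06). A loss of protein through a frameshift need not lower the mRNA, so these levels do not measure the share of edited cells.

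Complex IV is built from a catalytic core that mitochondrial DNA encodes, MT-CO1, MT-CO2 and MT-CO3, and from small nuclear subunits imported from the cytosol. The core needs heme A and copper, which dedicated enzymes and chaperones make and deliver, while other factors translate, insert and stabilise the core subunits until the modules around COX1, COX2 and COX3 are joined. Many of the small subunits exist as a general isoform and as isoforms of muscle, heart, lung or testis. Defects in assembly factors such as SURF1, SCO2 and COX10 cause inherited Complex IV deficiency.

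What the members share outside the readout was looked for in their promoters. RefSeq windows of 300 bases, from 250 before to 50 after the transcription start (GRCh38.p14), were given for 37 of the 42 members, 45 windows in all, and not for COX11, COX4I2, COX6C, COX7A1 and SCO2. The letters CCGGAAG, bound by ETS factors such as the GA-binding protein, stood in 17 of the 45 windows on either strand (37.8%), against 12.8% of 22199 windows of protein-coding genes and 10.3% of 35116 windows of all genes. They were in 4 of 13 windows of subunits (30.8%) and 13 of 32 windows of assembly factors (40.6%). The letters of nuclear respiratory factor 1, a pair of GCGC with any 2 bases between them, were in 15.6% of the members' windows against 10.6% of the protein-coding ones, AANATGGCG of YY1 in 11.1% against 4.24%, and CCAAT in 18 of 45 windows against 34.7%. TATAAA stood in 6.67% against 9.47%, and TGATGNAAN, the amino acid response letters of the ATF4 pathway, in 0 of 45 against 2.69%. The end of CCGGAAG can be the beginning of the YY1 letters, and a window with several motifs was counted for each. A match of letters is a description and not a bound site.

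Below are 5 of these windows, shown 5′ to 3′ on the gene's strand with the matched letters in capitals. COX5B and COX6A1 are shown as subunits with more than 1 match. COX15, SCO1 and CMC2 are shown as assembly factors with an unadjusted p under 0.05 in edgeR's quasi-likelihood test below. COX16 also had such a p but is not shown, and of the letters searched its window held only CCAAT. None of these genes was called after adjustment in that test. The COX5B window, chr2:97645812-97646111 on the plus strand, holds CCGGAAG from 37 and from 5 bases before the start. The COX6A1 window, chr12:120437863-120438162 on the plus strand, holds a pair of CCAAT boxes, the reverse complement of CCGGAAG, and the YY1 letters from base 12 of the transcript. The COX15 window, chr10:99732078-99732377 on the minus strand, holds CCGGAAG from 8 bases before the start, and the SCO1 window, chr17:10697484-10697783 on the minus strand, holds its reverse complement from 43 bases before. CMC2 has more than 1 window, and the one at chr16:81006836-81007135 on the minus strand holds the nuclear respiratory factor 1 letters from 38 bases before the start. The other CMC2 window is not shown, and of the letters searched it held only CCAAT.
COX5B: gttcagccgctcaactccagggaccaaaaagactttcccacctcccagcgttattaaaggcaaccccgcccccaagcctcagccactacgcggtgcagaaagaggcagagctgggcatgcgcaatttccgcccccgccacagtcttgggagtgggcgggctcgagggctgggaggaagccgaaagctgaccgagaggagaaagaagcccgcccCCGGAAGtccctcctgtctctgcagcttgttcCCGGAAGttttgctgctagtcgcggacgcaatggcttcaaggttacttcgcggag
COX6A1: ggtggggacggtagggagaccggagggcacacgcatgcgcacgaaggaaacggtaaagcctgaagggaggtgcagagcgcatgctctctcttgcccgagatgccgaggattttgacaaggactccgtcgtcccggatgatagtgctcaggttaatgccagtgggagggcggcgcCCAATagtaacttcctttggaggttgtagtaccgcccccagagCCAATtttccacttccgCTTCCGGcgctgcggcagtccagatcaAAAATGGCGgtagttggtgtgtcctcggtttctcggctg
COX15: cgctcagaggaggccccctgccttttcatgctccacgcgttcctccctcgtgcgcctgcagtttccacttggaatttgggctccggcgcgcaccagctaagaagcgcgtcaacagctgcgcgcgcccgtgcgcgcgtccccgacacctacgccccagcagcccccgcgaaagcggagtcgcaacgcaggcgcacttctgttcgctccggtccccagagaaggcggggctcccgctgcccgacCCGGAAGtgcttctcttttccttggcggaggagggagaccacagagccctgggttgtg
SCO1: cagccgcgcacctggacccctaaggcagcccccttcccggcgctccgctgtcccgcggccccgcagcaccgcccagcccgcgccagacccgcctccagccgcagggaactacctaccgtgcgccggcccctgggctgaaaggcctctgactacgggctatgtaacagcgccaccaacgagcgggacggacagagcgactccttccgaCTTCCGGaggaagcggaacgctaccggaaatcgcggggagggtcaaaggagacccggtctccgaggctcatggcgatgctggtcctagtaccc
CMC2: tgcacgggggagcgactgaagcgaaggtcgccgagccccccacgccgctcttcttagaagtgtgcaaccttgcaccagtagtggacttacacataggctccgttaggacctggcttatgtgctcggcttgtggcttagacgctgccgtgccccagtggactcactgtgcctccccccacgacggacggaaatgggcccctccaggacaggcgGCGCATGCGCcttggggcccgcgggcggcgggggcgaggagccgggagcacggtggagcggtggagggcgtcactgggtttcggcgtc

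Among the nuclear subunits, 9 of 15 passed edgeR's filter on low counts. Each of these 9 is a general isoform or a subunit with no other isoform among the members. The other 6, COX4I2, COX6A2, COX6B2, COX7A1, COX7B2 and COX8C, are isoforms of particular tissues and were at or near 0. COX4I2, the lung isoform of the targeted subunit, and COX6A2, the heart and muscle isoform, had 0 counts in all 6 libraries, which for counting error alone allows up to between 0.0959 and 0.174 CPM in a library (3 counts). COX6B2 had 2 counts in all, COX7B2 2, COX7A1 3 and COX8C 3. COX4I2 was thus not detectable at this depth with either set of guides.

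Per kilobase of the canonical transcript, the tested subunits fell into a higher and a lower set in sgCtrl. COX6B1, a subunit of the COX3 module on the intermembrane face, was highest at 370.8 ± 59.6 CPM per kb (SD, n = 3). COX7C followed at 270.8 ± 41.6, COX5B at 230.5 ± 49.5, COX6C at 204.7 ± 39.4, COX7A2 at 200 ± 47.3 and COX5A at 136.3 ± 15.7 CPM per kb. The means of COX7C, COX5B, COX6C and COX7A2 lay within the SDs of their neighbours in this order. COX7B at 35.2 ± 4.72, COX8A at 32.8 ± 9.01 and COX6A1 at 18.4 ± 1.13 CPM per kb made up the lower set, of which COX7B and COX8A did not differ beyond their spread. The transcript taken for COX7B is the long canonical one of 2444 bases, which lowers its value per kilobase. Reads that fit 2 places are often left out of a count, and COX6C has 17 annotated pseudogenes, COX5B, COX6A1 and COX6B1 have 7 each, and COX7B and COX7C 4 each, so levels of these genes are uncertain where the counting split or dropped such reads.

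**Figure D1:**
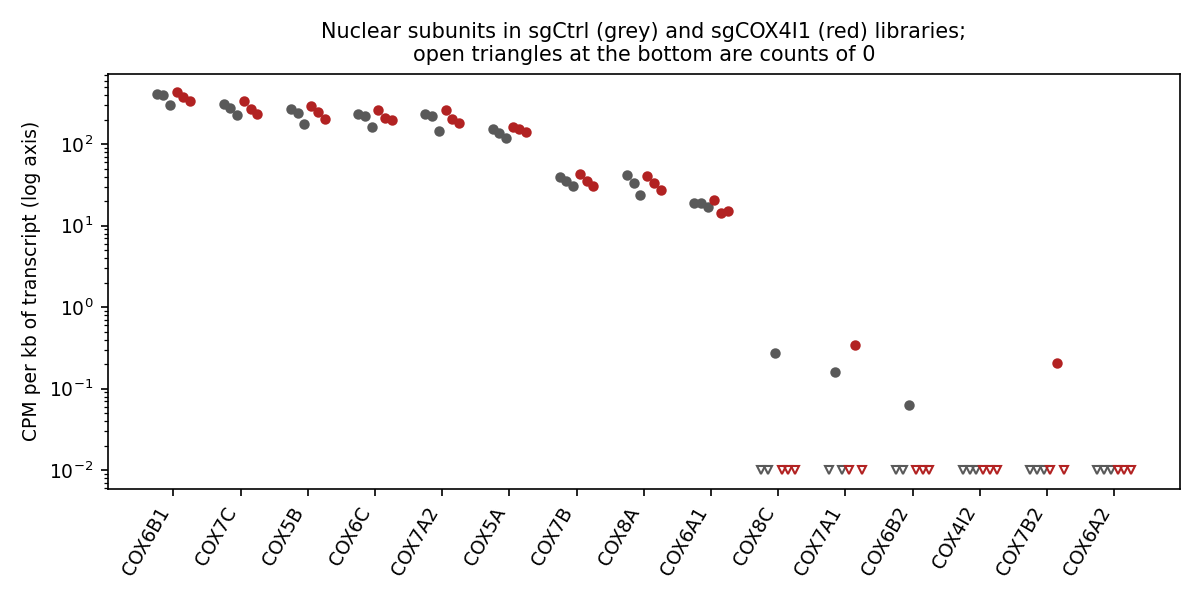
Level of the 15 nuclear subunits and isoforms in each library, as CPM per kilobase of canonical transcript on a log axis, with sgCtrl libraries in grey and sgCOX4I1 libraries in red, in the order #1 to #3, and counts of 0 as open triangles at the bottom. The 9 tested subunits lie between about COX6A1 at 18.4 and COX6B1 at 370.8 CPM per kb in sgCtrl, and the 6 tissue isoforms have at most 3 counts over the 6 libraries.

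The mRNA of the nuclear subunits did not pass the test for a change after COX4I1 targeting. Of the 9 tested subunits, 0 had an adjusted p under 0.05 in edgeR's quasi-likelihood fit, adjusted over all 11861 genes tested, where 247 of 11861 genes did (2.08%), and 0 met the further condition of a 2-fold change, which 24 genes did (0.202%). At an unadjusted p under 0.05 the count was 0 of 9 subunits against 17.3% of all genes, and DESeq2 also called 0. The median log2 fold change was 0.05 (range -0.14 to 0.15), beside -0.0023 over all genes tested. Of the 9 estimates 8 lay above 0, and every 95% interval, taken gene by gene, stayed within 1.5-fold in either direction, so a 2-fold change of any of them lay outside its interval.

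COX5A, the partner of COX4I1 in the first nuclear pair to join COX1, had the smallest p of the subunits. It was at 177.4, 161.5 and 140.8 CPM in sgCtrl and 188.7, 180.5 and 164.5 CPM in sgCOX4I1. Its groups overlapped, since sgCOX4I1 #3 lay below sgCtrl #1. The log2 fold change was 0.15 (SE 0.09, adjusted p = 0.408 in edgeR's quasi-likelihood test), and the 95% interval ran from 0.973-fold to 1.27-fold.

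COX5B, COX6C, COX7B, COX7C and COX8A, which belong to the COX2 module in the usual scheme of assembly, all had estimates above 0. COX5B, a zinc-binding subunit on the matrix side, was at 188.6, 166.9 and 121.6 CPM in sgCtrl and 201.8, 170.6 and 142.3 CPM in sgCOX4I1 (log2 fold change 0.11, SE 0.14, edgeR adjusted p = 0.750). COX6C, a membrane-spanning subunit, was at 174.7, 163.1 and 119.1 CPM against 193.2, 157.4 and 145.3 CPM (log2 fold change 0.12, SE 0.13, edgeR adjusted p = 0.695). COX8A, a short membrane-spanning subunit, was at 20.5, 16.3 and 11.6 CPM against 20.3, 16.3 and 13.4 CPM, a log2 fold change of 0.04. In each of these genes the values went from highest to lowest as #1, #2 and #3 within both groups, and the difference between libraries of a group was larger than the difference between groups.

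COX6A1, COX6B1 and COX7A2 belong to the COX3 module. COX6A1, which lies beside the core subunit MT-CO3, was at 10.3, 10.2 and 9.19 CPM in sgCtrl and 11.1, 7.62 and 8.03 CPM in sgCOX4I1. This was the only tested subunit with an estimate below 0 (log2 fold change -0.14, SE 0.16, edgeR adjusted p = 0.698), and sgCOX4I1 #1 was the highest of its 6 libraries. COX6B1 was at 200.5, 194.9 and 147.5 CPM against 210.3, 182.3 and 166.0 CPM (log2 fold change 0.04). COX7A2, the general isoform that binds at the dimer face, was at 108.6, 101.1 and 67.6 CPM against 121.9, 94.8 and 85.0 CPM (log2 fold change 0.12, SE 0.16, edgeR adjusted p = 0.739). COX7C had a log2 fold change of 0.05 and COX7B, at 97.7, 85.4 and 74.7 CPM against 104.7, 87.1 and 75.5 CPM, one of 0.05.

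**Figure D2:**
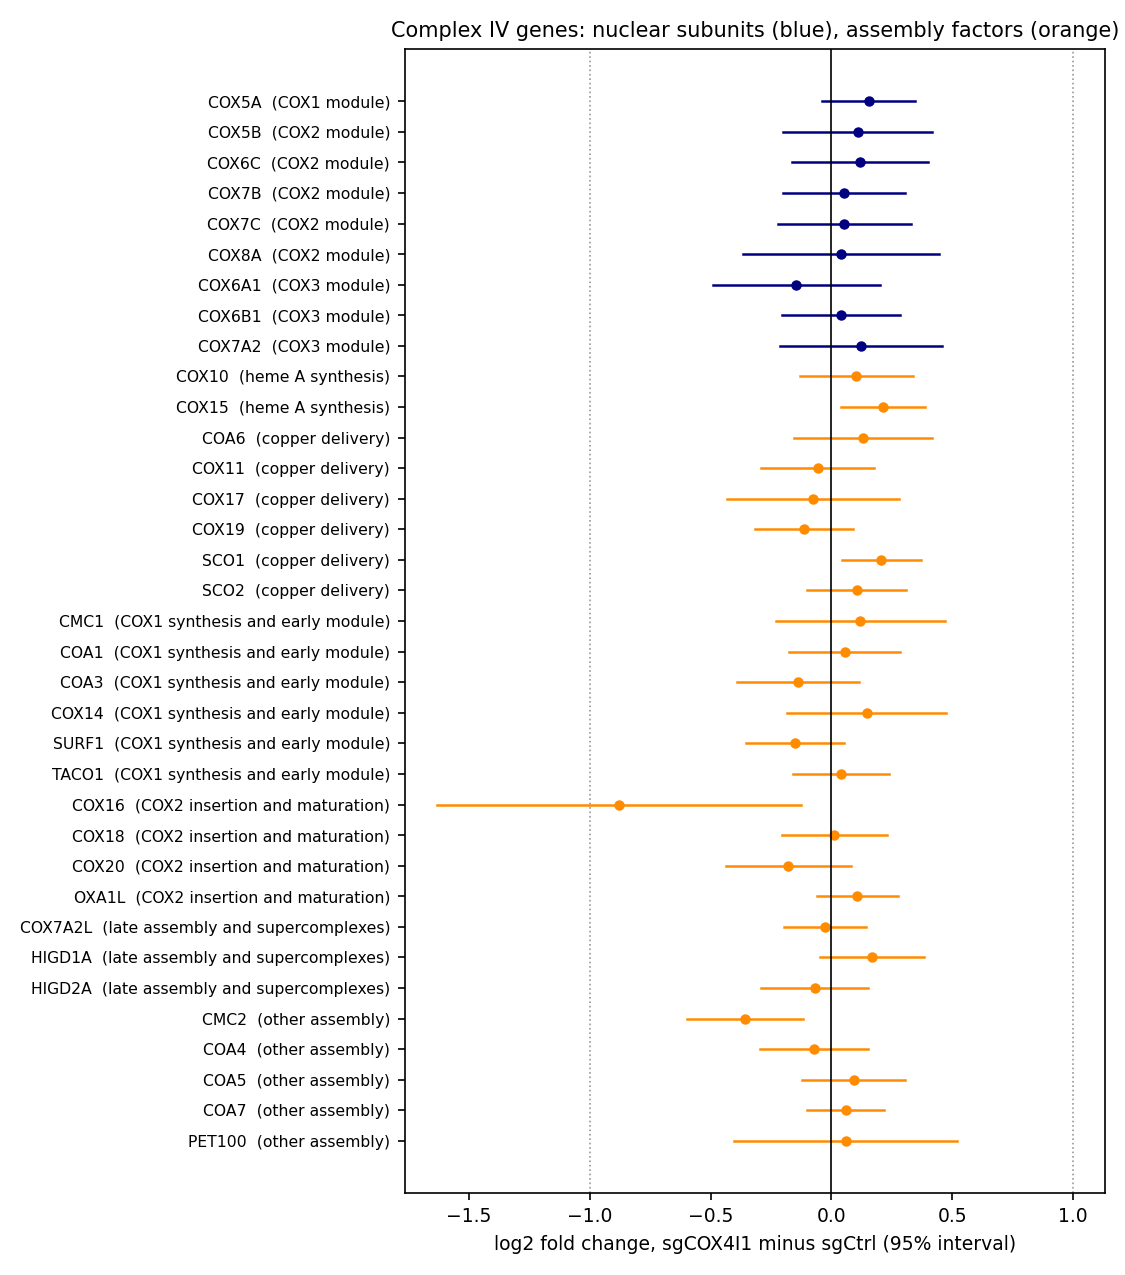
The log2 fold change (sgCOX4I1 minus sgCtrl, 3 libraries per group) of the 9 tested nuclear subunits (blue) and 26 tested assembly factors (orange) with 95% intervals from edgeR's quasi-likelihood fit, and dotted lines at a 2-fold change. Only COX16 at -0.88 lies beyond 0.5 in size, and the intervals of SCO1, COX15, CMC2 and COX16 alone leave out 0.

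The assembly factors gave the same count of calls. Of 27 genes, 26 were tested, and 0 passed an adjusted p of 0.05 with edgeR or with DESeq2. At an unadjusted p under 0.05 there were 4 of 26 (15.4%), SCO1 and COX15 higher and CMC2 and COX16 lower, where 17.3% of all genes did as well. No overlap between groups was seen for 5 of 26 (19.2%), the same 4 and HIGD1A, against 21.6% of all genes, and for 0 of 9 subunits. Both shares of the assembly factors were thus near those of the whole table. The median log2 fold change was 0.05, with 15 estimates above 0 and 11 below (range -0.88 to 0.22), and the interval stayed within 1.5-fold for 24 of 26, all but CMC2 and COX16.

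Heme A, the heme that only Complex IV uses, is made in 2 steps. COX15, the heme A synthase of the second step, was at 62.3, 58.1 and 59.2 CPM in sgCtrl and 75.9, 66.0 and 66.5 CPM in sgCOX4I1. All 3 sgCOX4I1 libraries lay above all 3 sgCtrl libraries, with sgCOX4I1 #1 highest. COX15 had a log2 fold change of 0.22 (SE 0.08, 1.16-fold with a 95% interval from 1.03 to 1.31, adjusted p = 0.188 in edgeR's quasi-likelihood test). COX10, the farnesyltransferase of the first step, was at 22.1, 18.4 and 19.5 CPM against 23.0, 21.3 and 20.2 CPM, and its groups overlapped (log2 fold change 0.10, SE 0.11).

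Copper reaches the core through COX17, which hands it to SCO1 and SCO2 for the COX2 site and to COX11 for the COX1 site. SCO1 was at 45.8, 45.0 and 43.2 CPM in sgCtrl and 51.2, 52.0 and 51.5 CPM in sgCOX4I1. The groups did not overlap, and the 3 sgCOX4I1 libraries lay close together although #2 retained the most COX4I1 mRNA. The log2 fold change was 0.21 (SE 0.08, 1.15-fold with a 95% interval from 1.03 to 1.29, adjusted p = 0.179 in edgeR's quasi-likelihood test). SCO2, its paralog, was at 32.1, 37.8 and 36.8 CPM against 34.8, 40.8 and 39.2 CPM (log2 fold change 0.10, SE 0.10). Of the exonic bases of SCO2, 26.1% are shared with TYMP on the same strand and 62.1% with NCAPH2 on the other, so its count is uncertain. The other 4 copper genes gave estimates on both sides of 0. COX17, a small copper chaperone of the intermembrane space, was at 25.1, 22.0 and 15.4 CPM against 23.4, 19.1 and 16.8 CPM (log2 fold change -0.08). COX11 was at 20.0, 21.1 and 20.4 CPM against 19.9, 17.4 and 21.6 CPM (log2 fold change -0.06). The estimate was -0.11 for COX19 and 0.13 for COA6, which also act in the copper path. On the same strand, COX17 shares 20.0% of its exonic bases with POPDC2 and COX19 17.7% with ADAP1, so these counts are uncertain too.

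The COX1 module starts with translation of MT-CO1, which TACO1 activates, and with the early assembly proteins COX14, COA3, COA1, CMC1 and SURF1. SURF1, which acts when heme A enters COX1, was at 28.1, 29.8 and 26.3 CPM in sgCtrl and 26.5, 25.4 and 24.0 CPM in sgCOX4I1, with overlapping groups (log2 fold change -0.15, SE 0.09). The estimates of the 6 genes ran from -0.15 to 0.15, with 4 above 0 and 0 at an unadjusted p under 0.05. TACO1 stood at 0.04, COX14 at 0.15, COA3 at -0.14, COA1 at 0.06 and CMC1 at 0.12 on the log2 scale. Of the exonic bases of COA3 42.3% lie opposite WNK4, and 33.4% of those of CMC1 lie opposite AZI2.

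COX2 is inserted by OXA1L and COX18, held by COX20, and passed to the copper proteins with the help of COX16. COX16 had the estimate of largest size among all members and some of the lowest counts, 15 to 39 reads per library. It was at 1.31, 2.12 and 1.18 CPM in sgCtrl and 0.980, 0.872 and 0.672 CPM in sgCOX4I1. The groups did not overlap, but sgCtrl #2 stood well above the other libraries of its group. The fitted log2 fold change was -0.88 (SE 0.35, 0.544-fold with a 95% interval from 0.322 to 0.917, adjusted p = 0.211 in edgeR's quasi-likelihood test). Without sgCtrl #2 the estimate was -0.58 (edgeR adjusted p = 0.615), and over the libraries left out it reached -1.04, without sgCtrl #3. SYNJ2BP and its read-through with COX16 share 37.8% of the exonic bases of COX16 on the same strand, so this count may not hold all COX16 reads. OXA1L, the insertase of the inner membrane, was 198.9 ± 12.2 CPM in sgCtrl and 214.4 ± 14.4 CPM in sgCOX4I1 (SD, n = 3 each), a log2 fold change of 0.11. COX20 was at 22.1, 24.2 and 20.1 CPM against 16.6, 20.6 and 21.4 CPM (log2 fold change -0.18, SE 0.12), and 76.6% of its exonic bases lie opposite HNRNPU. COX18 had an estimate of 0.01.

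CMC2, a small twin CX9C protein needed for Complex IV, had the smallest p of all 35 tested members. It was at 24.9, 21.6 and 21.6 CPM in sgCtrl and 19.4, 17.4 and 16.3 CPM in sgCOX4I1. Each sgCOX4I1 library lay below each sgCtrl library, and sgCtrl #1 and sgCOX4I1 #1 were the highest of their groups. Its log2 fold change was -0.36 (SE 0.11, 0.781-fold with a 95% interval from 0.662 to 0.922, adjusted p = 0.114 in edgeR's quasi-likelihood test). An exact two-sided permutation test cannot give a p under 0.1 with 3 libraries against 3. CMC2 lies on chromosome 16, at bases 80966448 to 81020270. The targeted gene COX4I1 is on the same chromosome, at bases 85798633 to 85807068. What part this position has in the lower values of CMC2 was not tested. Among the other factors with no fixed place in the order of assembly here, COA4 had an estimate of -0.07, COA5 of 0.09, COA7 of 0.06 and PET100 of 0.06. PET117 had 0 to 5 counts in a library and was not tested, and 78.3% of its exonic bases are shared with KAT14. APOPT1, that is COA8, was at 7.48 ± 1.07 CPM in sgCtrl and 7.01 ± 0.79 CPM in sgCOX4I1 (SD, n = 3 each).

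**Figure D3:**
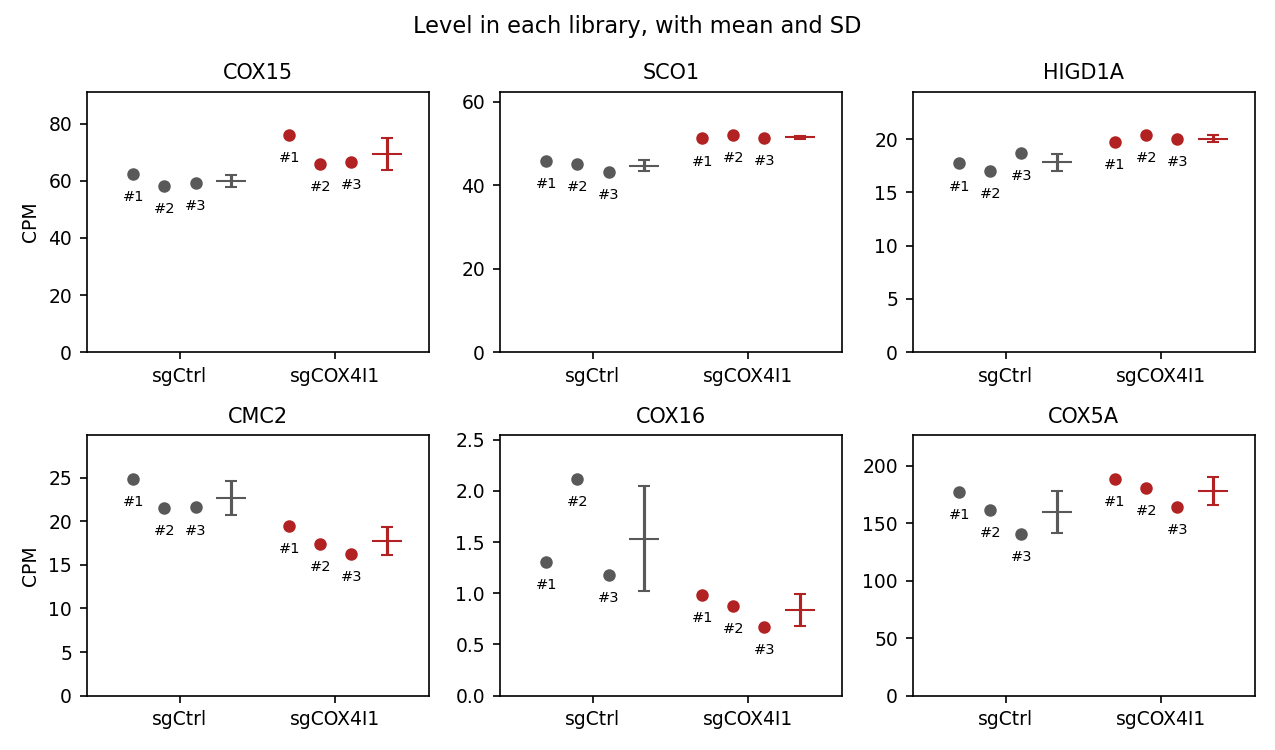
Level in CPM of COX15, SCO1, HIGD1A, CMC2, COX16 and COX5A in each library, with the mean and SD of 3 libraries beside the points (grey sgCtrl, red sgCOX4I1, axes from 0). The sgCOX4I1 libraries all lie above sgCtrl for COX15, SCO1 and HIGD1A and all below for CMC2 and COX16, and the groups of COX5A overlap.

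The factors that act late bring in COX3 and join Complex IV to supercomplexes. HIGD1A, a hypoxia-inducible small protein that binds the enzyme, was at 17.7, 17.1 and 18.7 CPM in sgCtrl and 19.7, 20.4 and 20.0 CPM in sgCOX4I1. The groups did not overlap (log2 fold change 0.17, SE 0.10, edgeR adjusted p = 0.419), and 17 pseudogenes of HIGD1A are annotated. HIGD2A, which helps COX3 join, was at 122.3, 106.0 and 93.5 CPM against 112.9, 103.1 and 91.2 CPM (log2 fold change -0.07). COX7A2L, which shares its family with COX7A2 and links Complexes III and IV, was at 149.0, 133.0 and 155.5 CPM against 150.2, 139.7 and 139.9 CPM (log2 fold change -0.03). In sgCtrl it was highest in #3, where COX7A2 was lowest, while in sgCOX4I1 both genes were highest in #1.

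The median of the subunits differed from library to library inside each group. Taken as the log2 distance of each gene from its sgCtrl mean, the median of the 9 subunits was 0.19, 0.06 and -0.28 in sgCtrl #1, #2 and #3, and 0.34, 0.05 and -0.14 in sgCOX4I1 #1, #2 and #3. In both groups #1 was highest and #3 lowest, and the mean of the medians was -0.0086 ± 0.245 in sgCtrl and 0.0829 ± 0.240 in sgCOX4I1 (SD, n = 3 each). The assembly factors moved less, with medians of 0.06, 0.03 and -0.06 in sgCtrl and 0.08, -0.03 and -0.05 in sgCOX4I1. The CPM of the 15 subunit rows summed to 1171, 1076 and 834.1 in sgCtrl and 1266, 1065 and 948.8 in sgCOX4I1. The subunit transcripts are short, with a median of 629 bases, against 2026 for the tested assembly factors and 3295 for 11775 genes tested and given a length.

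The medians over the 689 tested genes with a transcript under 1000 bases had the same order of libraries within each group, at 0.11, 0.05 and -0.14 in sgCtrl and 0.10, 0.01 and -0.11 in sgCOX4I1. Between groups the order differed, since sgCOX4I1 #1 lay above sgCtrl #1 for the subunits and not for these genes. Single short genes departed from the order within groups, such as SCO2, which was lowest in #1 of both groups, and COX6A1, which was lowest in sgCOX4I1 #2. The 70 genes under 500 bases had 0.18, 0.05 and -0.25 in sgCtrl and 0.26, 0.03 and -0.11 in sgCOX4I1. Across the 35 tested members the distance between sgCtrl #1 and #3 had a Pearson r of -0.505 with log2 transcript length, and of -0.186 across all 11775 genes. This is a description across genes that share their libraries. After a trend on length was taken out of each library, the subunit medians were 0.10, 0.01 and -0.18 in sgCtrl and 0.21, 0.04 and -0.02 in sgCOX4I1, and 0 of 9 subunits and 0 of 26 assembly factors were called. In that fit 2.89% of all genes were called. What part transcript length or RNA quality has in the order of the libraries was not tested.

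**Figure D4:**
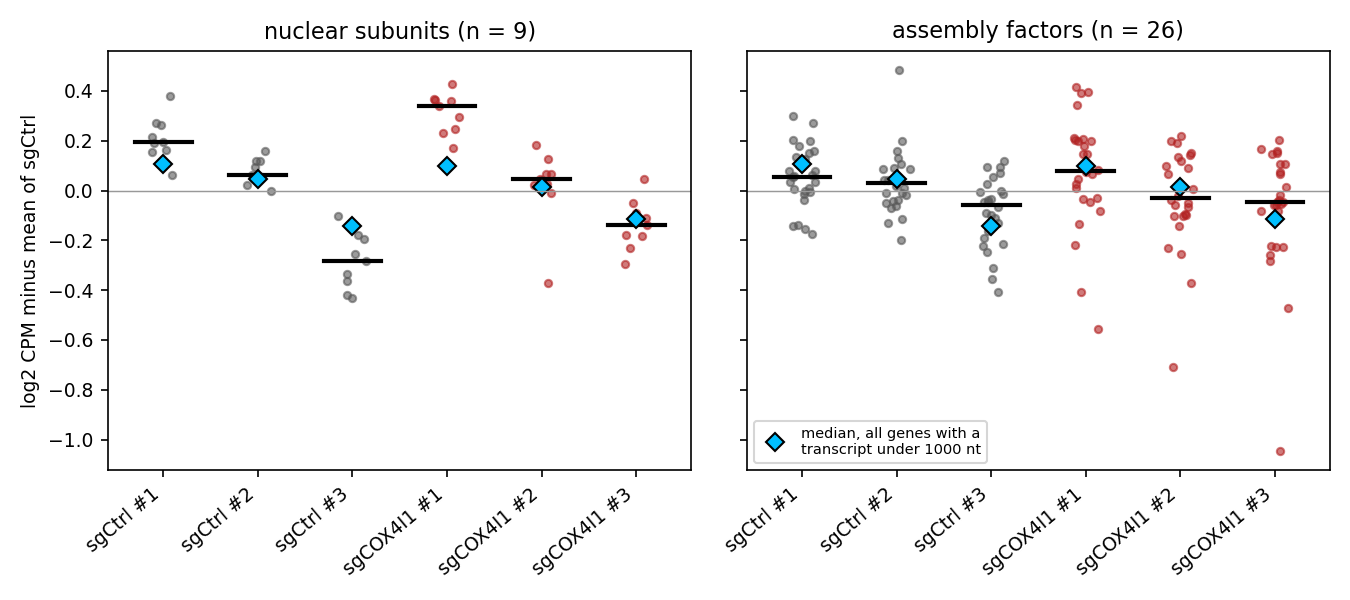
Distance of each tested subunit (left) and assembly factor (right) from its own sgCtrl mean on the log2 CPM scale, one point per gene and library, with the class median as a bar and the median of the 689 tested genes with a transcript under 1000 bases as a diamond. The subunit medians are highest in #1 and lowest in #3 of both groups, from 0.34 down to -0.28, and the medians of the short transcripts have the same order within each group over a smaller range.

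The direction of the subunit median rested on single libraries. It was 0.05 with all 6 libraries and -0.06 without sgCtrl #3 and -0.05 without sgCOX4I1 #1, and it rose to 0.23 without sgCtrl #1 and 0.18 without sgCOX4I1 #3. Only COX5A kept an estimate above 0 without sgCtrl #3, and only COX5A without sgCOX4I1 #1. The median of the assembly factors ranged less, from -0.02 without sgCOX4I1 #1 to 0.08 without sgCOX4I1 #3. Whichever library was left out, 0 of 9 subunits and 0 of 26 assembly factors were called. Calls over all genes in these fits ran from 0.2% without sgCtrl #2 to 4.66% without sgCtrl #1. A count of 0 among few members says little where so few genes are called.

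**Figure D5:**
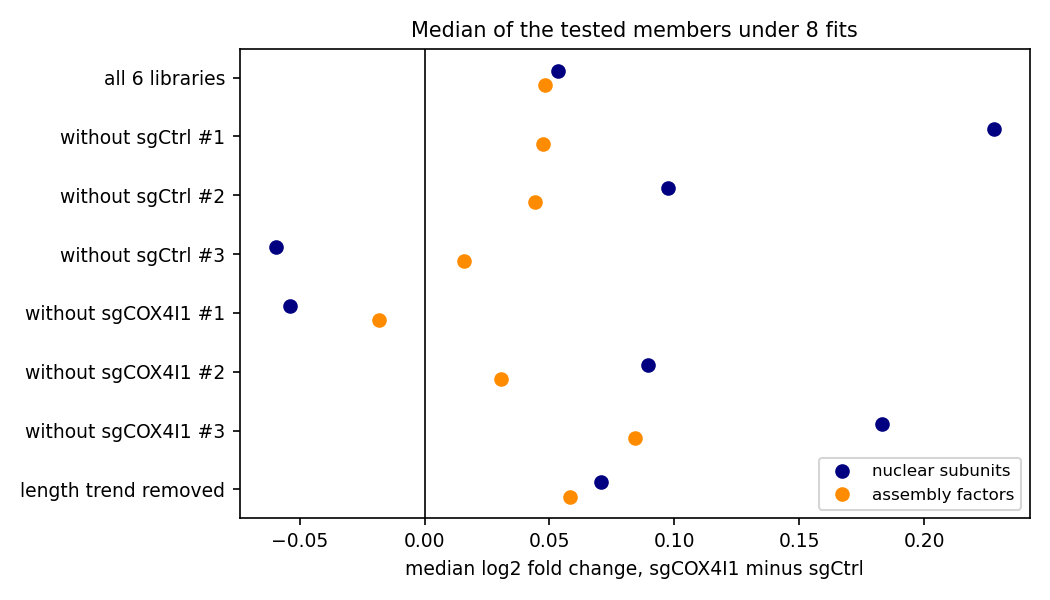
Median log2 fold change (sgCOX4I1 minus sgCtrl) of the 9 nuclear subunits (blue) and 26 assembly factors (orange) in edgeR fits with all 6 libraries, with each library left out, and with a trend on transcript length removed. The subunit median lies between -0.06 and 0.23 and the assembly median between -0.02 and 0.08.

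Other genes that serve Complex IV but fall outside the symbol rule were read from a list of 20, of which 18 were tested. Again 0 were called, where 2.08% of all genes were. Of the estimates 13 lay above 0 and 5 below, and the median log2 fold change was 0.09. Groups did not overlap for 2 of the 18, against 21.6% of all genes. Of the core subunits encoded in mitochondrial DNA, MT-CO1 was at 9744, 13360 and 18010 CPM in sgCtrl and 10170, 12460 and 15920 CPM in sgCOX4I1 (log2 fold change -0.09, SE 0.20). MT-CO2 was 3797 ± 348 CPM against 3833 ± 495 CPM (SD, n = 3 each, log2 fold change 0.01, SE 0.11), and MT-CO3 had a log2 fold change of -0.07 (SE 0.13). For each of these core genes #3 was the highest library of both groups, the reverse of the median of the nuclear subunits. NDUFA4, now counted as a subunit of Complex IV, was at 72.6, 67.2 and 50.1 CPM against 82.7, 71.6 and 60.8 CPM (log2 fold change 0.18, SE 0.13). SLC31A1, the copper importer of the cell surface, was at 38.7, 38.7 and 39.7 CPM against 47.2, 51.8 and 46.6 CPM. It had no overlap between groups and a log2 fold change of 0.31 (SE 0.08, edgeR adjusted p = 0.0631). LRPPRC, which stabilises mitochondrial mRNAs, also did not overlap (log2 fold change 0.20, SE 0.08, edgeR adjusted p = 0.215), and cytochrome c, CYCS, the electron donor of the enzyme, had a log2 fold change of 0.24 (SE 0.08, edgeR adjusted p = 0.149).

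Of 10 regulators of nuclear respiratory genes 9 were tested and 0 called, where 2.08% of all genes were called. No overlap between groups was seen for 2 of the 9, NRF1 and TFAM, against 21.6% of all genes. NRF1, the factor whose letters were searched in the promoters, was at 28.6, 31.7 and 30.2 CPM in sgCtrl and 24.0, 23.9 and 23.8 CPM in sgCOX4I1. These groups did not overlap, with a log2 fold change of -0.34 (SE 0.09, edgeR adjusted p = 0.0750). TFAM, the packaging protein of mitochondrial DNA, lay the other way, at 79.2, 69.6 and 67.1 CPM against 88.1, 80.7 and 79.5 CPM (log2 fold change 0.20, SE 0.08, edgeR adjusted p = 0.227). GABPA, a subunit of the GA-binding protein, was 41.3 ± 1.63 CPM in sgCtrl and 42.8 ± 1.02 CPM in sgCOX4I1 (SD, n = 3 each).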

How the data were processed

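RNA was measured in 6 Molm13 libraries, 3 per group. The authors deposited 1 table of raw read counts for 19845 gene symbols. The submitters' processing notes name bcl2fastq 2.20.0.422, STAR 2.6.0a and edgeR on GRCh38, whereas the study's methods describe Bowtie2 and RSEM. The column names point to STAR, marked duplicates and HTSeq. Whether duplicates were removed and which strand setting was used are not given in the sources used here, though the library kit was directional. Columns were matched to samples by letter (C for sgCtrl, K for the knockout) and number.

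In R 4.3.3, edgeR 4.0.16 gave TMM factors (0.987 to 1.01), its expression filter kept 11861 genes, and the quasi-likelihood test without covariates was run on all 6 libraries, and p-values were adjusted by Benjamini-Hochberg over those genes. The study's fold change condition of 2 was applied as a second call. CPM used the TMM-normalised library size, and log2 distances a prior count of 2. Limits at 0 use 3 counts and cover counting error only. Pairs of replicates differed beyond sampling noise (chi-square per degree of freedom 11.0 to 27.5), so each counted as 1 sample. Alternatives were DESeq2 1.42.0, limma-voom (limma 3.58.1), no TMM, other filters, a replicate block, loess trends on length and GC content (span 0.3), both with the block, and each library left out. Scripts were tested on simulated data.

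Positions, canonical transcript lengths and overlaps came from GENCODE 44 on GRCh38 (19206 symbols matched, all 42 members among them), and promoter letters from RefSeq. Full statistics were given for the 5 subunits and 5 assembly factors with the smallest p. Single-library values were given for these, for a fixed set of factors and for isoform pairs. COX7B, COX7A2L, SLC31A1, LRPPRC, CYCS, NRF1, TFAM, GABPA, MPO, FLT3 and CD33 were named beyond that or after their values were seen. Members and lists were chosen with earlier results of these data known.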

Additional observations from a re-analysis of the deposited data

How the results depend on the processing

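The count of called members was 0 under DESeq2, limma-voom, library size without TMM, both other filters, and trends on length or GC content alone, and 0 when any 1 library was left out (range 0 to 0 for subunits and for assembly factors). Of all genes, 3.84% were called under DESeq2. With 1 library left out the share ran from 0.2% (without sgCtrl #2) to 4.66% (without sgCtrl #1), so a count of 0 members says little there. Over the libraries left out, the subunit median log2 fold change ranged from -0.0595 to 0.2279, the assembly median from -0.0181 to 0.0842, and COX4I1 from -1.895 to -0.9539. Of the 35 tested members, 16 kept the sign of their estimate in all 16 alternatives. The log2 fold change of COX4I1 passed the threshold at -1.2049 without a filter, -1.4007 in limma-voom and -1.1962 with the length trend removed. It also passed without sgCtrl #1 (edgeR adjusted p = 0.0193), sgCtrl #3 (edgeR adjusted p = 0.0372) or sgCOX4I1 #2 (edgeR adjusted p = 3.37e-06). It did not pass in DESeq2 (adjusted p = 0.237), with the GC trend removed (edgeR adjusted p = 0.0746), without TMM, with 10 counts in every library, or without sgCtrl #2 (edgeR adjusted p = 0.273), sgCOX4I1 #1 (edgeR adjusted p = 0.0773) or sgCOX4I1 #3 (edgeR adjusted p = 0.125). Same-numbered libraries of the groups correlated in their deviations at 0.382, -0.024 and 0.294 for #1, #2 and #3. The value was -0.324 for sgCtrl #1 with sgCOX4I1 #3 and -0.384 for sgCtrl #3 with sgCOX4I1 #1. The remaining pairs lay between -0.101 and 0.13. Libraries #1 and #3 thus lined up by number and #2 did not. Deviations were centred within each group, so these values are tied to one another and cannot decide whether libraries were paired. No pairing is stated by the study, and the main fit took none. The block lowered the median SE of the subunits from 0.1304 to 0.06045. With the replicate number as a block, 2 assembly factors were called (CMC2, edgeR adjusted p = 0.0190, and COX15, edgeR adjusted p = 0.0328) and 0 subunits, while calls over all genes went from 247 to 1408 (11.9%). The block with the length trend removed called 2 assembly factors and 1 subunit, COX5A (log2 fold change 0.18, edgeR adjusted p = 0.0397), where 12% of all genes were called. The block with the GC trend removed called 1 assembly factor, CMC2, where 11.7% of all genes were called. COX4I1 was -1.3906, -1.3791 and -1.3784 in these fits with the block. The cause was not tested. The 95% intervals in the report set what 3 libraries per group can show, and they are widest for the low counts of COX16.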
